A study of Homo sapiens with 9 samples.

Results

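The genes described here are 41 components of transforming growth factor beta (TGF-beta) and bone morphogenetic protein (BMP) signaling, taken by gene symbol from a fixed list of ligands, latent-complex proteins, antagonists, receptors, SMADs, their regulators and the ID target genes. All 41 were found among the 61806 genes of the deposited table, and 38 had enough counts to be tested among 13562 genes. They were measured by RNA sequencing in 786-O cells, a human renal carcinoma line of clear cell type without functional VHL. There were 3 groups of 3 libraries: cells with TRIM28 knocked down, cells with PARP1 knocked down and control cells. The labels call the knockdown reagent siRNA in one field and shRNA in another. They describe the control as a negative control in one place and as wild type or parental in another. No label states that the libraries of a group came from separate cultures, so p-values measure the spread between these libraries, which may be technical. Every group is this 1 cell line, and the same 3 control libraries serve both knockdown comparisons.

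TGF-beta family ligands are dimers that bring type II and type I receptor kinases together at the cell surface. The type I receptor phosphorylates receptor SMADs, SMAD2 and SMAD3 for TGF-beta and activin or SMAD1 and SMAD5 for BMP, which bind SMAD4 and act in the nucleus. Inhibitory SMADs, corepressors and ubiquitin ligases limit the response, extracellular antagonists trap ligand, and latent TGF-beta binding proteins hold TGF-beta in the matrix. In clear cell renal carcinoma the pathway is best known for its part in growth control, matrix production and mesenchymal gene expression. TRIM28 is a corepressor brought to chromatin by KRAB zinc finger proteins, and PARP1 adds poly(ADP-ribose) chains to proteins at DNA breaks and on chromatin.

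Levels below are FPKM, fragments scaled to exon length and library size, computed from the deposited counts with TMM library scaling. The length is that of all exons of a gene summed, which can exceed that of the transcripts in use. Levels of different genes can therefore be compared only roughly. TRIM28 itself was at 12.1 ± 1.70 FPKM in TRIM28 knockdown cells and at 80.4 ± 7.66 FPKM in control cells (SD, n = 3 each), so that 15.1% of the control level was left. PARP1 was at 0.244 to 0.371 FPKM in PARP1 knockdown cells and at 8.31 to 10.9 FPKM in control cells, or 3.11% of the control mean. In TRIM28 knockdown cells PARP1 was also lower, at 52.9% of the control level. Libraries held 11963110 to 20224374 counts. The renal epithelial markers PAX8, KRT8 and KRT18 were at 39.2 to 306 FPKM and VIM at 590 to 1110 FPKM in all libraries, whereas CDH6, EPAS1 and CA9 were lower, at 0.265 to 10 FPKM. The leukocyte marker PTPRC had 0 counts in every library, and PECAM1, PDGFRB and LUM had at most 27 counts. Fewer cells of one kind and less RNA per cell cannot be told apart in such bulk libraries.

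The promoters of 6 genes on which the results turn are printed here, so that genes lower in both knockdowns can be set beside genes that were not. CHRDL1 (chrX:110795768-110796067, minus strand), NEO1 (chr15:73051652-73051951, plus strand), TGFBR2 (chr3:30606106-30606405, plus strand) and SMURF1 (chr7:99144059-99144358, minus strand) were lower in both. TGFB1 (chr19:41353873-41354172, minus strand) and ID1 (chr20:31605039-31605338, plus strand) were not lower in either with TMM scaling, though ID1 was lower in PARP1 knockdown once length and GC trends were removed. Each sequence is from RefSeq on GRCh38.p14, reads 5′ to 3′ on the strand of the gene and covers 250 bases before its RefSeq start and 50 bases from it. Capitals mark the GC box (GGGCGG), the CCAAT box (CCAAT) and the TATA box (TATAAA) searched on both strands, so that a motif may stand as its reverse complement. Neighbouring or overlapping matches run together as one stretch of capitals.
CHRDL1: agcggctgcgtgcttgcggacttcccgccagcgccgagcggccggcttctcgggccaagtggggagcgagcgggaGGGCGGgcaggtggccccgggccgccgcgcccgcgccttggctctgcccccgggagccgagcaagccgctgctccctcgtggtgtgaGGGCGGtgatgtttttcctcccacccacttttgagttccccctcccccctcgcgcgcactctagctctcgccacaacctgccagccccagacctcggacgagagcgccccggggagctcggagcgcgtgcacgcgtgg
NEO1: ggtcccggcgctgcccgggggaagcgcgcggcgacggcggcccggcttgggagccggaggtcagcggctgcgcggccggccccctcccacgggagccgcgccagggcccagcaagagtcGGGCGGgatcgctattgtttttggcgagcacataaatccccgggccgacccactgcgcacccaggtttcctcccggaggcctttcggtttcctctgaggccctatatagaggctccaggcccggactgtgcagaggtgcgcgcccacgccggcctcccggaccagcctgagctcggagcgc
TGFBR2: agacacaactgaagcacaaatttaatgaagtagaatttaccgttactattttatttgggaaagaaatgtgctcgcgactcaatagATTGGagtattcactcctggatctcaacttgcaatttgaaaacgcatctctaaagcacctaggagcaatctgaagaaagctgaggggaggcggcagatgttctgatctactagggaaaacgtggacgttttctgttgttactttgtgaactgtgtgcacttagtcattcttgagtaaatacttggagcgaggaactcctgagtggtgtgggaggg
SMURF1: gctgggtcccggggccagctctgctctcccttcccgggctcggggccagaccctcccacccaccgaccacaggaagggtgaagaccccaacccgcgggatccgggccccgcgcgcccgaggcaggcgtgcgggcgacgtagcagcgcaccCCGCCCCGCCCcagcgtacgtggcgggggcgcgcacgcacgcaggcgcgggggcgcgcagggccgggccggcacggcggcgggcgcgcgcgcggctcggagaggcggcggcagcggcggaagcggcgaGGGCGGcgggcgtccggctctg
TGFB1: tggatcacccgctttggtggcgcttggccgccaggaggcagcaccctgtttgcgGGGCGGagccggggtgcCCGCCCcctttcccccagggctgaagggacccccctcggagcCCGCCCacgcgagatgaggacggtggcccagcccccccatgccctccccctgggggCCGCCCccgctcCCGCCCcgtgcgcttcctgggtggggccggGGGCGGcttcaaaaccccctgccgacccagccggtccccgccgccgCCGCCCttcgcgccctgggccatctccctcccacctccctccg
ID1: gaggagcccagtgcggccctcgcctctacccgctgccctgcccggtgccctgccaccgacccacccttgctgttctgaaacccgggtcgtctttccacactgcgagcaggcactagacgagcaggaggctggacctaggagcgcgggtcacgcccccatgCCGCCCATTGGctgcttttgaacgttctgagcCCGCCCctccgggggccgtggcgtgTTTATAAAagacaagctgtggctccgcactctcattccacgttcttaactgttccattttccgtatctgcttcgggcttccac

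TGFB1 held 7 GC boxes, SMURF1 held 3, CHRDL1 and ID1 held 2 each, NEO1 held 1 and TGFBR2 held none. The TGFBR2 window was at 42.3% GC. The RefSeq start of TGFBR2 lies 245 bases from the gene start in the deposited table, and that of NEO1 192 bases. For CHRDL1, SMURF1, TGFB1 and ID1 the starts differ by at most 6 bases. A RefSeq promoter was found for 39 of the 41 genes. The GC box was in 28 of these 39, 71.8%, against 45.0% of all 35116 promoters in the table. The BMP-responsive GGCGCC element was in 14, 35.9%, against 19.2%, the CAGA box (CAGACA) in 8, 20.5%, against 16.9%, and the CCAAT box in 15, 38.5%, against 34.6%. The SMAD palindrome GTCTAGAC was in 1, that of SMAD6, 2.56% against 0.202% of all promoters. The cyclic AMP element TGACGTCA was in 2, those of LTBP1 and SKIL, 5.13% against 1.85%. The TATA box was in 4, 10.3%, against 11.5%. The median GC content was 71.7% in the 39 promoters and 58.7% in all promoters. It was 72.0% in the 21 matched genes that were lower in PARP1 knockdown and 71.7% in the 15 other tested ones. These matches describe letters in a window and not bound sites.

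In TRIM28 knockdown 15 of the 38 tested genes fell and 1 rose, with edgeR's quasi-likelihood test and Benjamini-Hochberg adjustment over all tested genes at 0.05. Across all tested genes 17.5% fell and 10.3% rose in that comparison, 27.8% in either direction. In PARP1 knockdown 23 fell and 3 rose, where 32.2% of all tested genes fell and 27.1% rose, 59.3% in either direction. The median log2 fold change of the 38 genes was -0.52 in TRIM28 knockdown and -0.84 in PARP1 knockdown, and that of all tested genes was -0.02 and -0.07. The libraries of knockdown and control did not overlap for 25 of the 38 genes in TRIM28 knockdown (46.4% of all tested genes) and for 27 in PARP1 knockdown (63.5% of all tested genes).

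**Figure D1:**
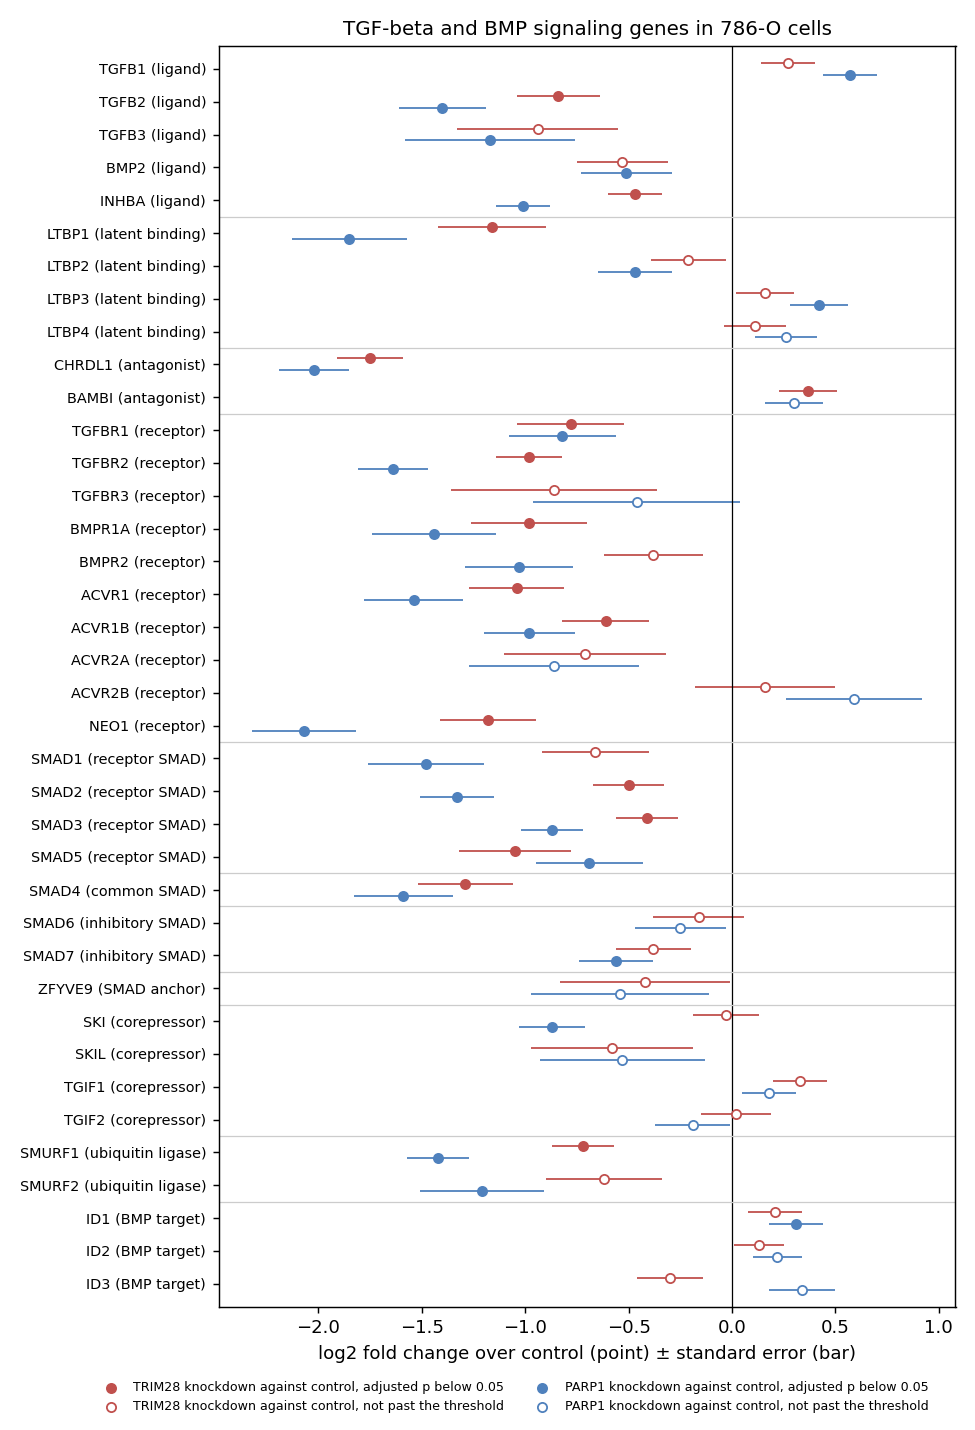
The log2 fold change over control (horizontal axis) with its standard error is shown for the 38 tested genes by role, in TRIM28 knockdown (red) and PARP1 knockdown (blue), filled where the adjusted p was below 0.05. Receptors, SMADs and ubiquitin ligases lie mostly left of 0, whereas TGFB1, LTBP3, LTBP4, BAMBI, ACVR2B, TGIF1, ID1 and ID2 lie right of it in both knockdowns.

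These genes are long, and over all tested genes longer ones tended to be lower in both knockdowns. Their median summed exon length was 7565 bases, against 5054.5 bases over all tested genes, and 29 of the 38 were longer than that median. Of the 29 longer genes, 14 fell and 0 rose in TRIM28 knockdown, where 26.6% of all longer genes fell and 4.7% rose. In PARP1 knockdown 20 of the 29 fell and 1 rose, where 45.1% of all longer genes fell and 15.7% rose. Among the 9 shorter genes, CHRDL1 fell and BAMBI rose in TRIM28 knockdown, where 8.44% of all shorter genes fell and 15.9% rose. In PARP1 knockdown BMP2, CHRDL1 and SMAD7 fell and TGFB1 and ID1 rose, where 19.2% of all shorter genes fell and 38.6% rose. When trends with exon length and GC content were removed from each library, 12 fell and 1 rose in TRIM28 knockdown, with 10.5% and 10.9% of all tested genes, and the median of the 38 was -0.26. In PARP1 knockdown 15 then fell and 2 rose, with 22.6% and 23.9% of all tested genes, and the median was -0.32. Within the 38 genes, the 19 longer than their own median length had median log2 fold changes of -0.47 in TRIM28 knockdown and -0.69 in PARP1 knockdown, and the other 19 had -0.61 and -0.87. The Spearman correlation of fold change with length across the 38 pointed the other way, at -0.199 and -0.202. Over all tested genes it was -0.414 and -0.428. The part of length and GC content in these falls was not tested beyond this.

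**Figure D2:**
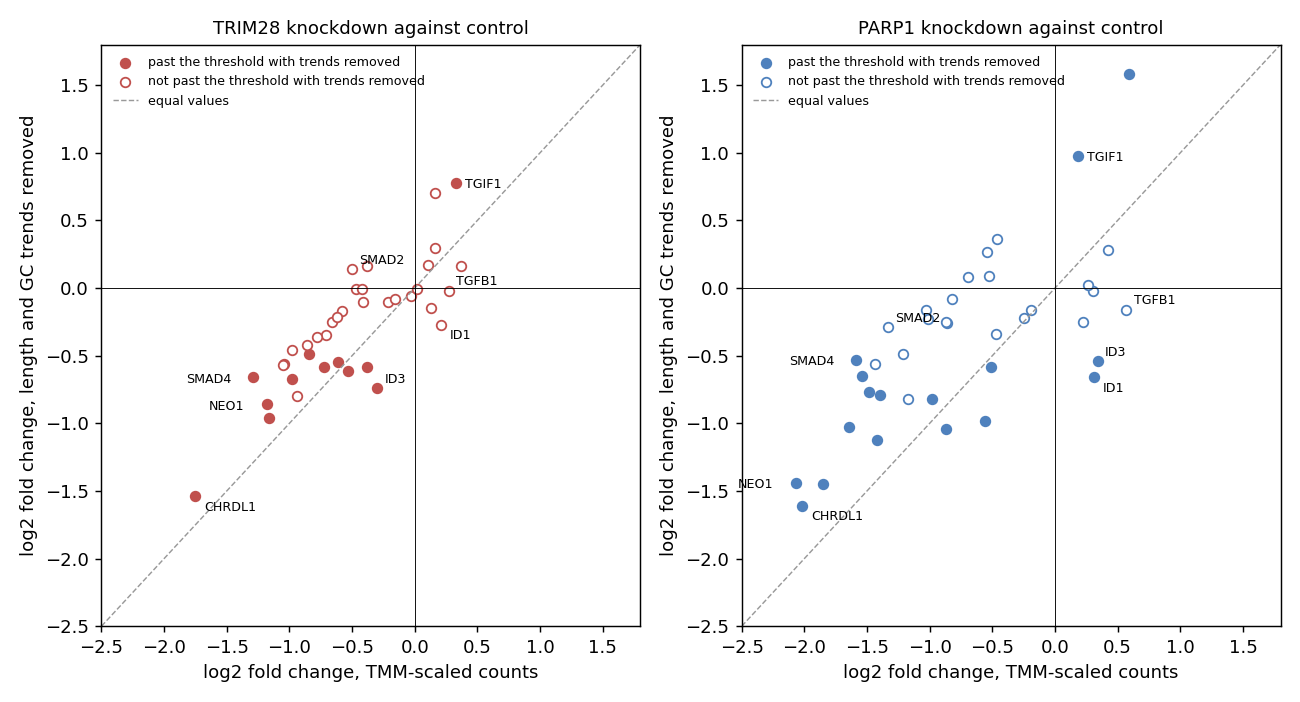
Each point is 1 of the 38 genes, with its log2 fold change over control from TMM-scaled counts on the horizontal axis and after removal of length and GC trends on the vertical axis, filled where the latter had an adjusted p below 0.05. Most genes lower in a knockdown lie above the dashed line of equal values, nearer to 0, while CHRDL1 and NEO1 stay far below 0 and ID1 and ID3 pass below 0 in PARP1 knockdown.

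Among the ligands, TGFB1 had the highest FPKM, and of the 5 tested it alone had a log2 fold change above 0 in each knockdown. The falls covered 2 ligands in TRIM28 knockdown and 4 in PARP1 knockdown, where 17.5% and 32.2% of all tested genes fell. With length and GC trends removed 2 ligands fell in each knockdown, where 10.5% and 22.6% of all tested genes fell. TGFB1, the main TGF-beta isoform of most epithelial tumours, had 35.1, 40.5 and 43.9 FPKM in TRIM28 knockdown, 45.4, 46.1 and 55.0 FPKM in PARP1 knockdown and 31.0, 33.6 and 34.4 FPKM in control libraries. Every knockdown library was above every control library. Its log2 fold change was 0.27 ± 0.13 (SE, edgeR adjusted p = 0.126) in TRIM28 knockdown and 0.57 ± 0.13 (SE, edgeR adjusted p = 0.000716) in PARP1 knockdown, but with length and GC trends removed the value in PARP1 knockdown was -0.16. TGFB1 overlaps HNRNPUL1 on the opposite strand, which averaged 4172 counts to 2057 for TGFB1, and reads of the 2 genes cannot be told apart where the strand setting of the counting is not given. HNRNPUL1 itself had log2 fold changes of -0.23 in TRIM28 knockdown and -0.76 in PARP1 knockdown.

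TGFB2, a second TGF-beta isoform, had 1.29, 1.25 and 1.28 FPKM in TRIM28 knockdown, 1.03, 0.699 and 0.850 FPKM in PARP1 knockdown and 2.46, 2.59 and 1.81 FPKM in control libraries. No knockdown library reached the lowest control library. TGFB2 fell in TRIM28 knockdown (log2 fold change -0.84 ± 0.20 SE, edgeR adjusted p = 0.0029) and in PARP1 knockdown (-1.40 ± 0.21 SE, edgeR adjusted p = 3.08e-06). INHBA, which encodes the activin A subunit, had 9.27, 9.23 and 10.3 FPKM in TRIM28 knockdown, 7.03, 6.44 and 6.39 FPKM in PARP1 knockdown and 15.2, 13.1 and 11.7 FPKM in control libraries. The 3 groups did not overlap. INHBA fell by 0.47 ± 0.13 on the log2 scale in TRIM28 knockdown (SE, edgeR adjusted p = 0.00917) and by 1.01 ± 0.13 in PARP1 knockdown (SE, edgeR adjusted p = 6.23e-07), and neither call held with length and GC trends removed, where the log2 fold changes were -0.01 and -0.23.

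BMP2, a BMP ligand, averaged 2.28 ± 0.572 FPKM in TRIM28 knockdown, 2.29 ± 0.773 FPKM in PARP1 knockdown and 3.31 ± 0.324 FPKM in control cells (SD, n = 3 each). It fell in PARP1 knockdown (log2 fold change -0.51 ± 0.22 SE, edgeR adjusted p = 0.0493), although its libraries overlapped those of control, and had -0.53 ± 0.22 (SE, edgeR adjusted p = 0.071) in TRIM28 knockdown. The call in PARP1 knockdown was lost in 3 of 12 alternative settings and in 5 of 6 fits that left out a library. With length and GC trends removed BMP2 passed as lower in both, at -0.61 in TRIM28 and -0.58 in PARP1 knockdown (edgeR adjusted p = 0.042 and 0.0286). TGFB3, the third TGF-beta isoform, was scarce, at 0.0947 to 0.417 FPKM and a mean of 23 counts. It fell in PARP1 knockdown (log2 fold change -1.17 ± 0.41 SE, edgeR adjusted p = 0.0157), a call lost with trends removed, and it lies opposite IFT43, which averaged 706 counts and rose in both knockdowns. BMP4 had 3 to 7 counts per library in TRIM28 knockdown, 4 to 10 in PARP1 knockdown and 1 to 7 in control, too few to be tested.

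TGFB1 took a larger share of the ligand transcripts in every knockdown library than in any control library. TGFB1 made up 74.6 ± 2.38% of the summed FPKM of the 6 ligands in TRIM28 knockdown, 82.7 ± 2.87% in PARP1 knockdown and 63.1 ± 4.01% in control cells (SD, n = 3 each). INHBA made up 18.1 ± 0.833%, 11.3 ± 1.22% and 25.5 ± 3.12% in TRIM28 knockdown, PARP1 knockdown and control cells. The ranges of these shares did not overlap between any 2 groups, and the shares were not tested. They rest on levels from which length and GC trends were not removed. With the trends removed, neither gene passed in either knockdown, with log2 fold changes in TRIM28 and PARP1 knockdown of -0.02 and -0.16 for TGFB1 and of -0.01 and -0.23 for INHBA. The summed level itself was 53.3 ± 4.59 FPKM in TRIM28 knockdown, 59.0 ± 4.77 FPKM in PARP1 knockdown and 52.4 ± 0.894 FPKM in control cells (SD, n = 3 each).

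**Figure D3:**
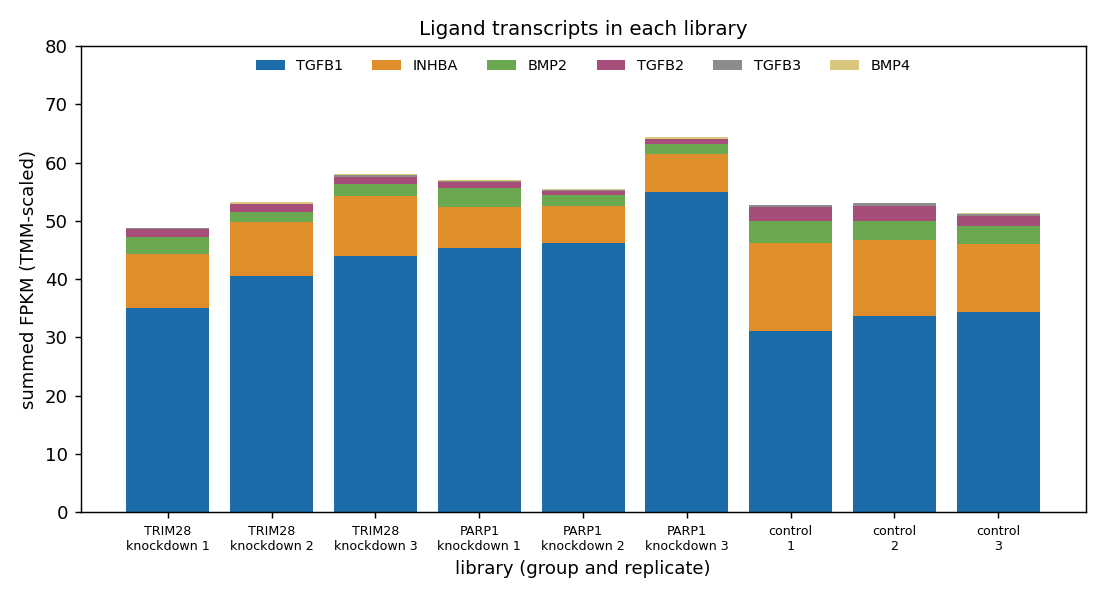
Stacked bars give the FPKM of the 6 ligands in each of the 9 libraries, so that the height is their sum. The INHBA segment is 6.39 to 10.3 FPKM in the 6 knockdown libraries and 11.7 to 15.2 FPKM in the 3 control libraries, and the TGFB1 segment is largest in PARP1 knockdown replicate 3, at 55.0 FPKM.

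The latent TGF-beta binding proteins, which tether latent TGF-beta to the extracellular matrix, did not move together. LTBP1 had 0.517, 0.488 and 0.312 FPKM in TRIM28 knockdown, 0.316, 0.322 and 0.162 FPKM in PARP1 knockdown and 0.963, 1.15 and 0.828 FPKM in control libraries. All 6 knockdown libraries were below control. It fell 2.24-fold in TRIM28 knockdown (log2 fold change -1.16 ± 0.26 SE, edgeR adjusted p = 0.00225) and 3.60-fold in PARP1 knockdown (-1.85 ± 0.28 SE, edgeR adjusted p = 5.13e-06). LTBP2, a family member that does not bind latent TGF-beta, fell in PARP1 knockdown (log2 fold change -0.47 ± 0.18 SE, edgeR adjusted p = 0.0274), but its value was 0.03 with the length trend removed, and -0.34 once GC trends were removed too (edgeR adjusted p = 0.0574). In TRIM28 knockdown it had -0.21 ± 0.18 (SE, edgeR adjusted p = 0.395). LTBP3 rose in PARP1 knockdown, at 4.12 ± 0.250 FPKM against 3.08 ± 0.266 FPKM in control cells (SD, n = 3 each; edgeR adjusted p = 0.0102), a call lost with trends removed. LTBP4 had log2 fold changes of 0.11 in TRIM28 knockdown and 0.26 in PARP1 knockdown, with edgeR adjusted p = 0.611 and 0.142.

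CHRDL1, a secreted antagonist that binds BMPs and keeps them from their receptors, showed the smallest adjusted p of the 38 genes in both knockdowns. It had 4.18, 3.50 and 4.37 FPKM in TRIM28 knockdown, 3.18, 3.47 and 3.33 FPKM in PARP1 knockdown and 15.1, 15.3 and 10.2 FPKM in control libraries. The highest knockdown library was far below the lowest control library. CHRDL1 fell 3.36-fold in TRIM28 knockdown (log2 fold change -1.75 ± 0.16 SE, edgeR adjusted p = 2.03e-07) and 4.06-fold in PARP1 knockdown (-2.02 ± 0.17 SE, edgeR adjusted p = 8.71e-10). With an exon length of 3920 bases it is shorter than the median tested gene, and with length and GC trends removed it still had -1.54 and -1.61. The direct comparison of TRIM28 with PARP1 knockdown gave 0.28 ± 0.17 (SE, edgeR adjusted p = 0.257).

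BAMBI, a pseudoreceptor without kinase activity that dampens TGF-beta and BMP signals, had 24.1, 21.6 and 23.6 FPKM in TRIM28 knockdown, 24.4, 22.9 and 18.8 FPKM in PARP1 knockdown and 17.3, 17.1 and 19.4 FPKM in control libraries. It was the 1 gene that rose in TRIM28 knockdown (log2 fold change 0.37 ± 0.14 SE, edgeR adjusted p = 0.0467), close to the threshold, and the call was lost in 8 of 12 alternative settings and in 5 of 6 fits that left out a library. In PARP1 knockdown it had 0.30 ± 0.14 (SE, edgeR adjusted p = 0.0625). The 2 other antagonists were at the edge of detection. FST, the activin-binding follistatin, had 10 counts in TRIM28 knockdown replicate 1 and 0 counts in the other 8 libraries, which allows up to 0.0502 to 0.108 FPKM in each of these 8 for counting error alone. GREM1, a BMP antagonist, had 7, 6 and 0 counts in the control libraries and at most 1 count in any knockdown library.

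The receptors were low in these cells, and with TMM scaling most of them fell. Summed over 10 receptors, the level was 8.61 ± 0.984 FPKM in TRIM28 knockdown, 5.98 ± 0.910 FPKM in PARP1 knockdown and 15.9 ± 2.64 FPKM in control cells (SD, n = 3 each). In TRIM28 knockdown 6 of the 10 fell and 0 rose, where 17.5% of all tested genes and 26.6% of all longer ones fell. In PARP1 knockdown 7 fell and 0 rose, where the shares were 32.2% and 45.1%. With trends removed 4 of the 10 fell in each knockdown, where 10.5% of all tested genes fell in TRIM28 knockdown and 22.6% in PARP1 knockdown. Of the 10, 1, ACVR2B, then rose in PARP1 knockdown, where 23.9% of all tested genes rose. TGFBR2, the type II receptor that binds TGF-beta, alone gave 48.3 ± 0.902%, 43.4 ± 3.93% and 51.3 ± 1.89% of that sum in TRIM28 knockdown, PARP1 knockdown and control cells (SD, n = 3 each).

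TGFBR2 had 4.62, 3.74 and 4.13 FPKM in TRIM28 knockdown, 3.16, 2.69 and 1.99 FPKM in PARP1 knockdown and 9.57, 8.43 and 6.59 FPKM in control libraries. The 3 groups were fully separate, with PARP1 knockdown lowest. TGFBR2 fell 1.97-fold in TRIM28 knockdown (log2 fold change -0.98 ± 0.16 SE, edgeR adjusted p = 0.000124) and 3.11-fold in PARP1 knockdown (-1.64 ± 0.17 SE, edgeR adjusted p = 2.29e-08). With trends removed the values were -0.67 and -1.03, and both calls held. TGFBR1, the type I receptor that pairs with it, was at 0.378 ± 0.0828 FPKM in TRIM28 knockdown, 0.370 ± 0.0861 FPKM in PARP1 knockdown and 0.650 ± 0.0313 FPKM in control cells (SD, n = 3 each). It fell in both (edgeR adjusted p = 0.0236 and 0.00912), and neither call held with trends removed. TGFBR3, the coreceptor betaglycan, had at most 0.113 FPKM in any library and edgeR adjusted p = 0.207 and 0.436.

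NEO1 encodes neogenin, a receptor for repulsive guidance molecules that act as BMP coreceptors. It had 0.750, 0.578 and 0.711 FPKM in TRIM28 knockdown, 0.440, 0.322 and 0.328 FPKM in PARP1 knockdown and 1.92, 1.68 and 1.05 FPKM in control libraries. All groups were separate, and control replicate 3 was the control nearest to the knockdowns. NEO1 fell 2.26-fold in TRIM28 knockdown (log2 fold change -1.18 ± 0.23 SE, edgeR adjusted p = 0.000515) and 4.20-fold in PARP1 knockdown (-2.07 ± 0.25 SE, edgeR adjusted p = 1.72e-07), the lowest fold change of the 38 in PARP1 knockdown. ACVR1, a type I receptor for BMPs and activins, had 0.784, 0.599 and 0.661 FPKM in TRIM28 knockdown, 0.666, 0.473 and 0.282 FPKM in PARP1 knockdown and 1.60, 1.53 and 1.10 FPKM in control libraries. It fell in both (log2 fold changes -1.04 ± 0.23 and -1.54 ± 0.24, edgeR adjusted p = 0.00181 and 6.36e-06), and both calls held with trends removed.

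ACVR1B, the type I receptor for activin, fell in TRIM28 knockdown (log2 fold change -0.61, edgeR adjusted p = 0.0321) and in PARP1 knockdown (-0.98, edgeR adjusted p = 0.000433), with trends removed as well (edgeR adjusted p = 0.0467 and 0.00233). The call in TRIM28 knockdown was lost in 2 of 12 alternative settings and in 4 of 6 fits that left out a library. BMPR1A, a type I BMP receptor, fell by 0.98 and 1.44 on the log2 scale (edgeR adjusted p = 0.0116 and 0.000196), and both calls were lost with trends removed. BMPR2, the type II BMP receptor, fell in PARP1 knockdown (log2 fold change -1.03, edgeR adjusted p = 0.0012), also lost with trends removed, and had -0.38 in TRIM28 knockdown (edgeR adjusted p = 0.245). The type II activin receptors did not pass in either comparison: ACVR2A had -0.71 and -0.86, and ACVR2B had 0.16 and 0.59. With trends removed ACVR2B passed as higher in PARP1 knockdown, at levels of 0.153 ± 0.0225 FPKM in PARP1 knockdown and 0.103 ± 0.0347 FPKM in control cells (SD, n = 3 each).

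**Figure D4:**
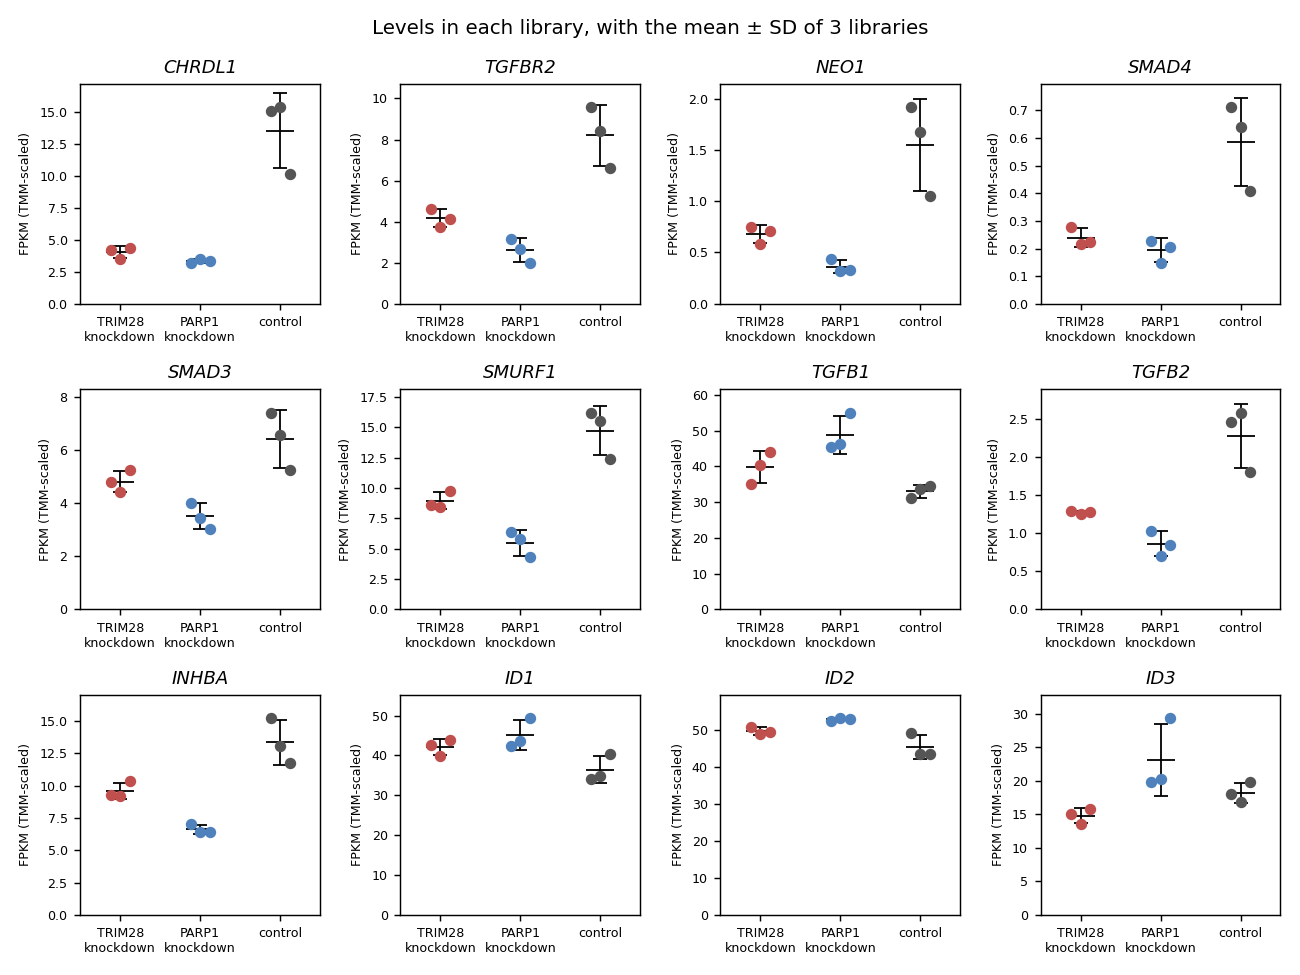
FPKM of 12 genes in each library, with TRIM28 knockdown, PARP1 knockdown and control from left to right in each panel and the mean ± SD of 3 libraries in black. CHRDL1, TGFBR2, NEO1, SMAD4, SMURF1, TGFB2 and INHBA have every knockdown point below every control point, TGFB1 has every knockdown point above, and in ID3 PARP1 knockdown replicate 3, at 29.4 FPKM, lies apart from the other libraries.

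With TMM scaling 3 of the 4 receptor SMADs fell in TRIM28 knockdown and all 4 in PARP1 knockdown, where 26.6% and 45.1% of all longer genes fell. With length and GC trends removed 0 of the 4 passed in TRIM28 knockdown and 1, SMAD1, fell in PARP1 knockdown. Of all tested genes 10.5% and 22.6% then fell in TRIM28 and PARP1 knockdown. SMAD3, which carries TGF-beta and activin signals, had the highest FPKM of the 4. It had 4.80, 4.43 and 5.24 FPKM in TRIM28 knockdown, 4.02, 3.46 and 3.04 FPKM in PARP1 knockdown and 7.42, 6.60 and 5.27 FPKM in control libraries. TRIM28 knockdown replicate 3 came very near to control replicate 3 without overlapping it. SMAD3 fell in TRIM28 knockdown (log2 fold change -0.41 ± 0.15 SE, edgeR adjusted p = 0.0366) and in PARP1 knockdown (-0.87 ± 0.15 SE, edgeR adjusted p = 2.02e-05), and neither call held with trends removed. SMAD2, its close relative, was at 0.477 ± 0.0526 FPKM in TRIM28 knockdown, 0.268 ± 0.0580 FPKM in PARP1 knockdown and 0.677 ± 0.106 FPKM in control cells (SD, n = 3 each). Its log2 fold changes were -0.50 (edgeR adjusted p = 0.0318) and -1.33 (edgeR adjusted p = 1.05e-06), but with an exon length of 36426 bases it is the longest of the 38 genes, and with trends removed the values were 0.14 and -0.29 (edgeR adjusted p = 0.598 and 0.187). SMAD3 made up 91.0 ± 0.608%, 92.9 ± 1.14% and 90.5 ± 0.503% of the summed FPKM of SMAD2 and SMAD3 in TRIM28 knockdown, PARP1 knockdown and control cells (SD, n = 3 each). These shares depend on the exon lengths used, 36426 bases for SMAD2 and 9981 bases for SMAD3. In counts the genes were closer, with 600, 491 and 462 for SMAD2 and 1540, 1360 and 1141 for SMAD3 in the control libraries.

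The BMP receptor SMADs were below 1.13 FPKM in every library. SMAD1 was at 0.444 ± 0.0166 FPKM in TRIM28 knockdown, 0.245 ± 0.0793 FPKM in PARP1 knockdown and 0.701 ± 0.101 FPKM in control cells (SD, n = 3 each). It fell in PARP1 knockdown (log2 fold change -1.48 ± 0.28 SE, edgeR adjusted p = 7.52e-05), with trends removed as well, and had -0.66 ± 0.26 in TRIM28 knockdown (SE, edgeR adjusted p = 0.0587). SMAD5 fell by 1.05 and 0.69 on the log2 scale (edgeR adjusted p = 0.00515 and 0.0282), but neither call held with trends removed, where its value in PARP1 knockdown was 0.08.

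SMAD4, the partner that every receptor SMAD shares, had 0.279, 0.215 and 0.224 FPKM in TRIM28 knockdown, 0.229, 0.146 and 0.206 FPKM in PARP1 knockdown and 0.712, 0.640 and 0.408 FPKM in control libraries. The knockdowns overlapped each other and not the controls. SMAD4 fell 2.44-fold in TRIM28 knockdown (log2 fold change -1.29 ± 0.23 SE, edgeR adjusted p = 0.000271) and 3.01-fold in PARP1 knockdown (-1.59 ± 0.24 SE, edgeR adjusted p = 4.86e-06), and both calls held with trends removed, at -0.66 and -0.53. Its exon length of 19668 bases is the second longest of the 38, which lowers its FPKM, and it had 34 to 291 counts per library. SMAD7, the inhibitory SMAD that TGF-beta induces, had 5.19, 5.23 and 6.55 FPKM in TRIM28 knockdown, 6.82, 4.16 and 3.86 FPKM in PARP1 knockdown and 7.36, 7.62 and 7.10 FPKM in control libraries. It fell in PARP1 knockdown (log2 fold change -0.56 ± 0.18 SE, edgeR adjusted p = 0.00869) and had -0.38 ± 0.18 in TRIM28 knockdown (SE, edgeR adjusted p = 0.109), which passed with trends removed. SMAD6, the inhibitory SMAD of the BMP branch, had -0.16 and -0.25 and did not pass in either. ZFYVE9, the SMAD anchor on endosomes, averaged 21 counts and had -0.42 and -0.54, with edgeR adjusted p = 0.466 and 0.288.

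Of the corepressors, SKI was the 1 that separated the 2 knockdowns. SKI, which binds SMADs and blocks their activation of transcription, had 6.41, 7.42 and 7.91 FPKM in TRIM28 knockdown, 5.24, 3.38 and 3.40 FPKM in PARP1 knockdown and 7.71, 7.70 and 6.75 FPKM in control libraries. TRIM28 knockdown spanned the control range, and all 3 PARP1 knockdown libraries were below both. SKI fell in PARP1 knockdown (log2 fold change -0.87 ± 0.16 SE, edgeR adjusted p = 4.64e-05) and had -0.03 ± 0.16 in TRIM28 knockdown (SE, edgeR adjusted p = 0.916). TGIF1, a homeodomain corepressor of SMAD2 and SMAD3, was the most abundant, at 20.3 ± 0.861 FPKM in TRIM28 knockdown, 18.3 ± 1.63 FPKM in PARP1 knockdown and 16.2 ± 0.860 FPKM in control cells (SD, n = 3 each). Its log2 fold changes of 0.33 (edgeR adjusted p = 0.0517) and 0.18 (edgeR adjusted p = 0.227) did not pass, and both passed as higher with trends removed, at 0.78 and 0.98. SKIL had -0.58 and -0.53, TGIF2 had 0.02 and -0.19, and neither passed.

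SMURF1, a ubiquitin ligase that targets BMP SMADs and TGF-beta receptors, had 8.61, 8.45 and 9.77 FPKM in TRIM28 knockdown, 6.36, 5.76 and 4.28 FPKM in PARP1 knockdown and 16.2, 15.5 and 12.4 FPKM in control libraries. The 3 groups did not overlap. SMURF1 fell 1.64-fold in TRIM28 knockdown (log2 fold change -0.72 ± 0.15 SE, edgeR adjusted p = 0.000968) and 2.68-fold in PARP1 knockdown (-1.42 ± 0.15 SE, edgeR adjusted p = 3.2e-08), with trends removed as well. It overlaps TRRAP on the opposite strand, which averaged 632 counts to 1075 for SMURF1 and had log2 fold changes of -1.03 and -1.68, so reads from either could enter the count of the other. SMURF2, its paralog, fell in PARP1 knockdown (log2 fold change -1.21 ± 0.30 SE, edgeR adjusted p = 0.00106), lost with trends removed, and had -0.62 in TRIM28 knockdown (edgeR adjusted p = 0.0944).

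The ID genes, inhibitors of helix-loop-helix factors and direct targets of BMP SMADs, included ID1 and ID2, which had the highest FPKM of the 41 genes in control cells. ID1 had 42.7, 39.9 and 43.8 FPKM in TRIM28 knockdown, 42.4, 43.6 and 49.4 FPKM in PARP1 knockdown and 34.1, 34.9 and 40.4 FPKM in control libraries. Its PARP1 knockdown libraries all lay above control, and those of TRIM28 knockdown overlapped the highest control library. ID1 rose in PARP1 knockdown at the edge of the threshold (log2 fold change 0.31 ± 0.13 SE, edgeR adjusted p = 0.0497), but the value was -0.02 when scaled by library totals alone and -0.66 (edgeR adjusted p = 6.07e-05) with trends removed, so no direction can be given. In TRIM28 knockdown ID1 had 0.21 ± 0.13 (SE, edgeR adjusted p = 0.247).

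ID2 had 51.0, 48.8 and 49.4 FPKM in TRIM28 knockdown, 52.6, 53.2 and 53.0 FPKM in PARP1 knockdown and 49.1, 43.4 and 43.6 FPKM in control libraries, with edgeR adjusted p = 0.444 and 0.122. ID3 had 15.1, 13.5 and 15.8 FPKM in TRIM28 knockdown, 19.8, 20.4 and 29.4 FPKM in PARP1 knockdown and 18.1, 16.8 and 19.8 FPKM in control libraries. TRIM28 knockdown lay below control, and the lowest PARP1 knockdown library was level with the highest control library. The log2 fold changes of ID3 were -0.30 ± 0.16 (SE, edgeR adjusted p = 0.16) in TRIM28 knockdown and 0.34 ± 0.16 (SE, edgeR adjusted p = 0.0655) in PARP1 knockdown, and with trends removed both passed as lower, at -0.74 and -0.54. In PARP1 knockdown ID3 passed as higher with DESeq2, with DESeq2 size factors and with the replicate block, at 0.40, 0.40 and 0.33, so no direction can be given there. The ID genes are short, at 1233 to 2213 bases of exon, well under the median tested gene.

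The 2 knockdowns were then compared with each other. Of the 38 genes, 8 were higher and 1 was lower in TRIM28 knockdown than in PARP1 knockdown, where 13.2% of all tested genes were higher and 11.9% lower, 25.1% in either direction. The libraries of the knockdowns did not overlap for 17 of the 38, and for 39.4% of all tested genes. All 8 higher genes were among the 29 longer ones, where 17.8% of all longer genes were higher and 6.03% lower. ID3 was among the 9 shorter ones, where 8.63% of all shorter genes were higher and 17.7% lower. With trends removed 3 were higher, SKI, SMURF1 and ID1, and 0 lower, where 7.06% of all tested genes were higher and 7.57% lower. INHBA, TGFBR2, NEO1, SMAD1, SMAD2, SMAD3, SKI and SMURF1 were higher, at log2 fold changes of 0.46 to 0.89, and ID3 was lower, at -0.64 ± 0.16 (SE, edgeR adjusted p = 0.00577). SKI, at 7.25 ± 0.769 FPKM in TRIM28 knockdown and 4.01 ± 1.07 FPKM in PARP1 knockdown (SD, n = 3 each), had a log2 fold change of 0.85 ± 0.16 (SE, edgeR adjusted p = 0.000945). SMURF1 had 0.71 ± 0.15 (SE, edgeR adjusted p = 0.00217). SKI and SMURF1 were the 2 of these 9 calls that held in all alternative settings and with each library left out. For SMAD4 the difference was 0.30 (edgeR adjusted p = 0.426) and for LTBP1 0.68 ± 0.30 (SE, edgeR adjusted p = 0.0997), which does not show that the knockdowns act alike on them.

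The calls that held in every alternative setting in which the gene was fitted and with each library left out were few. In TRIM28 knockdown these were the falls of ACVR1, CHRDL1, LTBP1, NEO1, SMAD4, SMURF1 and TGFBR2, 7 of 16 calls. In PARP1 knockdown they were the falls of these 7 and of ACVR1B, SKI, SMAD1 and TGFB2, 11 of 26 calls. Control replicate 3 was the lowest control library for 14 of the 15 genes lower in TRIM28 knockdown and for 21 of the 23 lower in PARP1 knockdown. Per doubling of exon length, log2 levels about the gene mean changed by 0.203, 0.175 and 0.073 in control replicates 1, 2 and 3. These slopes are over all tested genes and were -0.024 to -0.001 in TRIM28 knockdown and -0.167 to -0.097 in PARP1 knockdown libraries. Their part in the order of the control libraries was not tested. In TRIM28 knockdown 8 genes passed without control replicate 1, in place of 16. There 10 passed without control replicate 2, and likewise without TRIM28 knockdown replicate 2. The share of all tested genes that passed fell as well, from 27.8% to 11.1%, 13.4% and 15.2% in these 3 fits.

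A further 118 genes listed for the pathway were found in the table and 78 of them tested. The 78 include MAN1B1, which was listed in error and is 1 of the 2 counted as rising in TRIM28 knockdown. In TRIM28 knockdown 26 of the 78 fell and 2 rose, with a median log2 fold change of -0.34, where 17.5% of all tested genes fell and 10.3% rose. With the length trend removed 17 fell and 5 rose there, where 12.3% of all tested genes fell and 11.5% rose. With length and GC trends removed 18 fell and 3 rose in TRIM28 knockdown, where 10.5% of all tested genes fell and 10.9% rose. In PARP1 knockdown 38 fell and 11 rose, with a median of -0.58, where 32.2% of all tested genes fell and 27.1% rose. With length and GC trends removed 38 fell and 10 rose there, where 22.6% of all tested genes fell and 23.9% rose. In TRIM28 knockdown 14 of the 78 passed without control replicate 1, in place of 28. There 18 passed without control replicate 2, and leaving out TRIM28 knockdown replicate 2 gave 17. Of all tested genes 11.1%, 13.4% and 15.2% passed in these 3 fits, in place of 27.8%.

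Genes known to be induced by TGF-beta did not move as 1 group. In TRIM28 knockdown 3 of 27 tested fell and 0 rose, where 17.5% of all tested genes fell and 10.3% rose. Their median was -0.02 there, the same as for all tested genes. THBS1, a matrix glycoprotein that activates latent TGF-beta, was at 21.7 ± 0.937 FPKM in TRIM28 knockdown, 12.6 ± 1.36 FPKM in PARP1 knockdown and 44.1 ± 6.82 FPKM in control cells (SD, n = 3 each). Its log2 fold changes were -1.02 ± 0.14 (SE, edgeR adjusted p = 8.04e-06) and -1.81 ± 0.14 (SE, edgeR adjusted p = 3.06e-10). COL4A1, a basement membrane collagen, fell by 1.08 and 1.37, and SNAI2, a repressor of epithelial genes, fell by 0.59 and 1.41 on the log2 scale. In PARP1 knockdown 12 of the 27 fell and 6 rose, where 32.2% of all tested genes fell and 27.1% rose. Their median was -0.31 there, and that of all tested genes was -0.07. After both trends were removed 5 fell and 1 rose in TRIM28 knockdown, where 10.5% of all tested genes fell and 10.9% rose. In PARP1 knockdown 15 then fell and 4 rose, where 22.6% of all tested genes fell and 23.9% rose. With TMM scaling CDKN1A, the cell cycle inhibitor p21, rose by 1.00 on the log2 scale in PARP1 knockdown. SPHK1, a sphingosine kinase, rose by 1.09 there and JUNB, an AP-1 subunit, by 0.70.

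Of 24 intracellular regulators of the pathway, 14 fell and 2 rose in TRIM28 knockdown, where 17.5% of all tested genes fell and 10.3% rose. In PARP1 knockdown 17 fell and 2 rose, where 32.2% fell and 27.1% rose. With length and GC trends removed 8 fell and 2 rose in TRIM28 knockdown, where 10.5% of all tested genes fell and 10.9% rose. In PARP1 knockdown 13 then fell and 3 rose, where the shares were 22.6% and 23.9%. The coactivator CREBBP was at 1.75 ± 0.0991 FPKM in TRIM28 knockdown, 1.28 ± 0.245 FPKM in PARP1 knockdown and 3.56 ± 0.622 FPKM in control cells (SD, n = 3 each), with edgeR adjusted p = 4.07e-05 and 4.78e-08. EP300, its paralog, and RNF111, a ubiquitin ligase that removes SMAD repressors, fell by 1.16 and 1.13 on the log2 scale in TRIM28 knockdown. STRAP, a WD-repeat protein that binds TGF-beta receptors, and NEDD4L, a ubiquitin ligase for SMADs, fell by 1.41 and 1.48 in PARP1 knockdown. STRAP and NEDD4L fell in TRIM28 knockdown as well, by 0.72 and 0.75 (edgeR adjusted p = 0.00116 and 0.00106). With TMM scaling the 2 that rose in each knockdown were TAB1, a partner of the kinase MAP3K7, and MAN1B1. The latter, a mannosidase of the endoplasmic reticulum, was listed here in error and is counted among the 24.

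Among other secreted regulators 6 of 13 fell and 0 rose in TRIM28 knockdown, where 17.5% of all tested genes fell and 10.3% rose. In PARP1 knockdown 6 fell and 2 rose, where 32.2% fell and 27.1% rose. After removal of both trends 3 fell and 0 rose in TRIM28 knockdown, where 10.5% of all tested genes fell and 10.9% rose. In PARP1 knockdown 6 then fell and 1 rose, where the shares were 22.6% and 23.9%. CRIM1, a transmembrane protein that binds BMPs, was at 6.44 ± 0.643 FPKM in TRIM28 knockdown, 3.95 ± 0.240 FPKM in PARP1 knockdown and 12.3 ± 3.02 FPKM in control cells (SD, n = 3 each), with edgeR adjusted p = 0.000117 and 9.69e-09. BMPER, a secreted BMP modulator, fell in both, to 2.13 ± 0.0603 FPKM in TRIM28 knockdown and 1.40 ± 0.254 FPKM in PARP1 knockdown, against 3.47 ± 0.409 FPKM in control cells (SD, n = 3 each). ITGAV, an integrin subunit that binds latent TGF-beta, fell in TRIM28 knockdown, to 0.818 ± 0.0618 FPKM against 1.48 ± 0.428 FPKM in control cells (SD, n = 3 each; edgeR adjusted p = 0.00132). FSTL1, a secreted follistatin-like glycoprotein, fell in PARP1 knockdown, to 20.5 ± 4.25 FPKM against 50.7 ± 5.99 FPKM in control cells (SD, n = 3 each; edgeR adjusted p = 8.61e-08). FSTL1 fell in TRIM28 knockdown as well, to 34.3 ± 3.41 FPKM (SD, n = 3, edgeR adjusted p = 0.00618). FSTL3, a follistatin-like inhibitor of activin, rose in PARP1 knockdown, at 184 ± 30.0 FPKM against 108 ± 12.1 FPKM in control cells (SD, n = 3 each; edgeR adjusted p = 3.17e-05). INHBB, the activin B subunit, was at 17.0 ± 1.44 FPKM in TRIM28 knockdown, 11.7 ± 3.90 FPKM in PARP1 knockdown and 24.4 ± 1.13 FPKM in control cells (SD, n = 3 each), and it fell in both (edgeR adjusted p = 0.0205 and 7.27e-06). GDF11, an activin-like ligand, fell in both as well. Among 6 other BMP targets HEY1, a Notch and BMP target, alone passed in PARP1 knockdown, as lower (log2 fold change -1.16, edgeR adjusted p = 0.00138). There 32.2% of all tested genes fell and 27.1% rose. In TRIM28 knockdown 0 of these 6 passed, where 27.8% of all tested genes did.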

How the data were processed

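Polyadenylated RNA was sequenced from 9 libraries with a directional kit, per the labels, which give all of them 1 batch. The submitters' processing notes name STAR 2.7.9a and featureCounts 2.0.1 with GRCh38, beside Trim Galore 0.6.6, FastQC 0.11.9 and DESeq2 1.30.0. Neither the annotation release nor the strand setting is given in the sources used here. Raw counts and FPKM of each gene were deposited by the authors, per the file headers.

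Counts of 13562 genes passing the filter of edgeR 4.0.16 (R 4.3.3) were tested in 1 fit of 3 groups with TMM factors, 6 residual degrees of freedom and a biological coefficient of variation of 0.149, two-sided. Levels are FPKM recomputed from the deposited counts with TMM scaling. Intervals and floors, at 3 counts, cover counting error only. Alternatives used DESeq2 1.42.0, limma 3.58.1 on log2(FPKM + 1) and log2(FPKM + 0.1), other scalings, length and GC trends removed by lowess (span 0.3), a replicate block and each library left out. The test was first tested on simulated data. Replicates were checked for duplication and differed beyond sampling noise. Figures used matplotlib 3.10.9 in Python 3.11.15.

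The genes and lists were chosen with earlier results of these data known, so that their counts are descriptions. All 41 genes are accounted for. The other pathway genes named are among the 3 with the smallest adjusted p per list, comparison and direction, not all of which are described. Of 119 such genes listed, 118 were matched. Some overlaps between genes are not reported here.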

Additional observations from a re-analysis of the deposited data

How the results depend on the processing

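Counts of the 38 genes past the threshold were 16 in TRIM28 knockdown, 26 in PARP1 knockdown and 9 between the knockdowns, where 27.8%, 59.3% and 25.1% of all tested genes passed. With a mean FPKM of at least 1 the counts were 7 and 12 in the knockdowns, with 20 of the genes tested and 1 and 2 calls lost among these. Of all genes tested in that fit 28.4% and 69.1% passed. Limma on FPKM gave 10 with a pseudocount of 0.1 in TRIM28 knockdown, and 17 with either pseudocount in PARP1 knockdown. The shares of all genes in these limma fits were 21.8% in TRIM28 knockdown and 62.3% to 62.5% in PARP1 knockdown. With length and GC trends removed, with or without the replicate block, 17 of the 38 passed in PARP1 knockdown (2 higher, 15 lower) and 3 between the knockdowns (3 higher, 0 lower). Without the block 46.5% and 14.6% of all tested genes passed in these 2 comparisons, and with it 45.7% and 15.3%. With only the length trend removed, 2 of the 38 were higher and 10 lower in TRIM28 knockdown, where 11.5% of all tested genes were higher and 12.3% lower. Scaled by library totals alone, 0 were higher and 26 lower in PARP1 knockdown, where 14.9% of all tested genes were higher and 42.8% lower. The median of all tested genes then moved to -0.18, -0.39 and 0.20 in the 3 comparisons.

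Leaving out 1 library gave 8 to 19, 20 to 27 and 5 to 14 genes in the 3 comparisons. Of all tested genes 11.1% to 35.4%, 49.6% to 59.8% and 11.9% to 33.8% passed in these fits. The lowest count between the knockdowns was without TRIM28 knockdown replicate 1 and the highest, 14, without PARP1 knockdown replicate 1. For the other pathway genes, with 28, 49 and 25 past the threshold, leaving out 1 library gave 14 to 30, 41 to 53 and 13 to 32. Between the knockdowns there were 15 without TRIM28 knockdown replicate 1, 14 without PARP1 knockdown replicate 2 and 13 without PARP1 knockdown replicate 3. Of all tested genes 11.9%, 15.4% and 12.3% passed in these 3 fits. Their split, higher and lower, was 5 and 17 in TRIM28 knockdown and 12 and 8 between the knockdowns with the length trend removed, and 6 and 48 in PARP1 knockdown and 21 and 3 between the knockdowns with library totals, in place of 2 and 26, 19 and 6, 11 and 38, and 19 and 6.

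Some log2 fold changes changed sign. With length and GC trends removed, with or without the replicate block, SMAD2 had 0.14 in TRIM28 knockdown, and in PARP1 knockdown TGFB1 had -0.16, ID1 -0.66, SMAD5 0.08 (0.06 with the block) and ID3 -0.54 (-0.55 with the block). ID1 between the knockdowns had 0.40 in both. With the length trend removed, LTBP2 had 0.03 and ID1 -0.22 in PARP1 knockdown. ID1 there had -0.02 with library totals and with limma at either pseudocount. Values that passed in neither fit changed sign in 124 further cases. The cause of these changes was not tested.

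The replicate numbers gave no clear pairing of the libraries. Deviations of libraries with the same number correlated between -0.0814 and 0.141 across the group pairs, and those with different numbers between -0.164 and 0.118. Not every library correlated best with its own number, and correlations this small cannot exclude a weak pairing. The replicate block gave 19, 27 and 9 of the 38 genes, and 30, 50 and 29 of the 78, where 30.1%, 59.5% and 27% of all tested genes passed. Low counts limit TGFBR3, at 5 to 21 counts per library, and ZFYVE9, TGFB3 and ACVR2A, at means of 21.4, 22.8 and 26.8 counts, and left 3 genes untested.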
